A study of Mus musculus with 6 samples.

Results

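The transcription factor genes Runx2, Runx1, Dlx5, Sp7, Msx2, Sox9, Irx5 and Twist1 were followed by RNA sequencing in the mouse pre-osteoblastic line MC3T3-E1. They were taken by gene symbol from a table of 15796 genes, and all 8 were found. Gene positions below are those of build GRCm38. The overexpression group was 3 libraries of cells carrying a plasmid with Hsd11b1, and the control group was 3 libraries of cells carrying a plasmid with EGFP, which the labels call WT. All 6 had been incubated with 11-DHC (11-dehydrocorticosterone), an inert steroid that the enzyme 11β-HSD1, encoded by Hsd11b1, turns into active corticosterone. No library without 11-DHC was analysed here, all came from a single cell line, and the labels do not say whether replicates were separate cultures.

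Bone-forming osteoblasts arise from mesenchymal progenitors that can also become cartilage, fat or muscle, and a small network of transcription factors sets that course. RUNX2 acts early and is required for the lineage, and SP7 (osterix) acts downstream of it. The homeodomain factors DLX5 and MSX2 act around RUNX2, SOX9 directs cartilage formation, and TWIST1 holds RUNX2 in check. Glucocorticoids in excess restrain bone formation.

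Read totals recovered from the FPKM (fragments scaled to exon length and library size) were 18290811 to 58665313 for overexpression and 16264263 to 34948093 for controls. Overexpression 3 and control 2 were the deepest. Hsd11b1 averaged 328 ± 15.0 FPKM in overexpression libraries and 0.860 ± 0.903 FPKM in control libraries (SD, n = 3 each). Of the osteoblast markers fixed for the label, Alpl and Bglap were not found by symbol among the 15796 genes. Bglap2 was found and is given with the RUNX2 or SP7 targets below. The matrix genes Spp1, Col1a1, Col1a2 and Sparc averaged 1142, 632, 635 and 624 FPKM in overexpression libraries and 1251, 767, 695 and 498 FPKM in control libraries.

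Of the 8 factors, 7 had a mean of at least 1 FPKM over the 6 libraries and entered the test (limma on log2(FPKM + 1), p-values adjusted over 13120 genes, threshold 0.05). Sox9, Irx5, Dlx5 and Runx2 rose, Runx1 fell, and Sp7 and Twist1 did not pass, while Msx2 lay under the filter. Among all tested genes, 6.22% were called higher and 5.84% lower. The factors were chosen with earlier results of these data known, so their share is no test of an excess. The median log2 difference was 0.25 over the 7 factors and -0.01 over all tested genes. The changes were modest: folds of the mean FPKM ran from 0.765 for Runx1 to 1.40 for Irx5, and 94 tested genes differed by at least 1 on the log2 scale. In bulk RNA, fewer cells expressing a gene and less RNA per cell cannot be told apart.

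**Figure D1:**
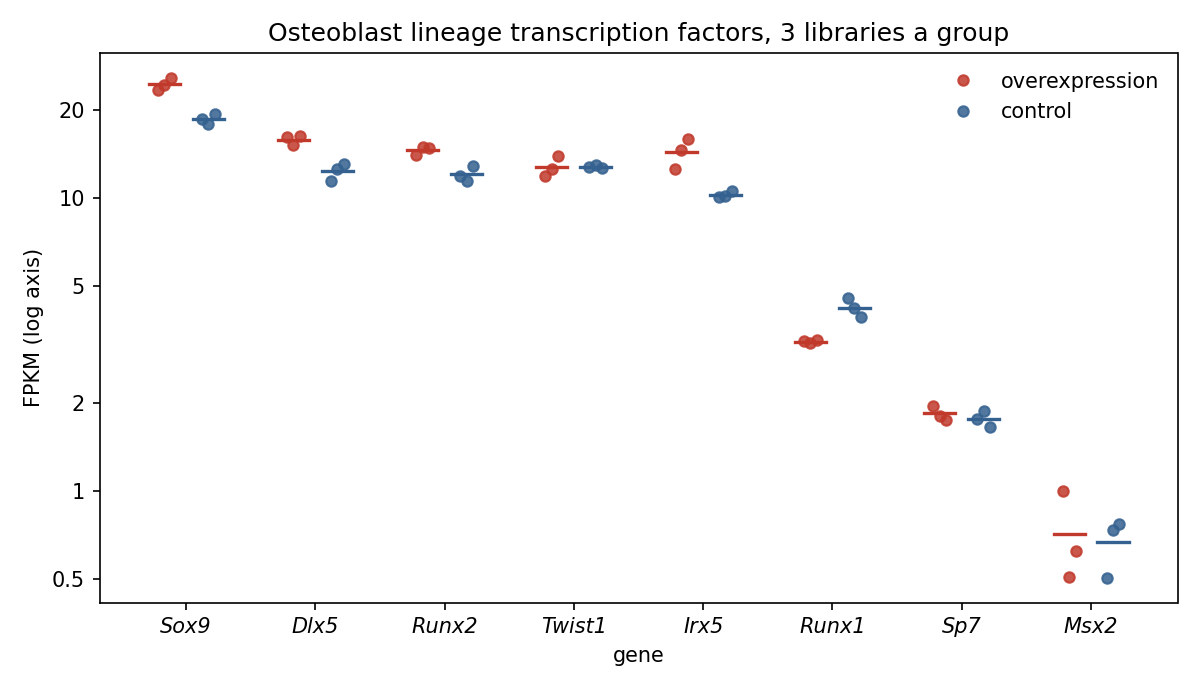
FPKM of the 8 factors on a log axis, with 3 overexpression libraries (red, left) and 3 control libraries (blue, right) per gene, ordered by the mean of all 6, and bars at the group means. The groups do not overlap for Sox9, Dlx5, Runx2, Irx5 and Runx1, and they overlap for Twist1, Sp7 and Msx2.

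On this per-length scale Sox9 was the most abundant factor in both groups. It averaged 24.5 FPKM in overexpression libraries, above Dlx5 (15.9), Runx2 (14.6), Irx5 (14.3), Twist1 (12.8), Runx1 (3.24), Sp7 (1.84) and Msx2 (0.710). In control libraries the order was Sox9 (18.7 FPKM), Twist1 (12.8), Dlx5 (12.4), Runx2 (12.1), Irx5 (10.3), Runx1 (4.23), Sp7 (1.76) and Msx2 (0.669). The ranges of neighbouring genes overlapped between Runx2 and Irx5 and between Irx5 and Twist1 in overexpression libraries. In control libraries they overlapped between Twist1 and Dlx5 and between Dlx5 and Runx2. Other neighbours in the order did not overlap.

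Runx2 (ENSMUSG00000039153, chr17:44495987-44814797, minus strand), the factor without which osteoblasts do not form, had 14.0, 14.9 and 14.8 FPKM in overexpression 1 to 3, against 11.9, 11.5 and 12.8 FPKM in control 1 to 3. Every overexpression library lay above every control library, a separation in that direction that 14.7% of tested genes showed. Behind these values stood 2266, 2464 and 7678 reads in overexpression 1 to 3 and 2098, 3549 and 1846 reads in control 1 to 3. Runx2 differed by 0.25 on the log2 scale (SE 0.07, 95% interval 0.10 to 0.41, limma adjusted p = 0.0442). This call ended with any of the 6 libraries left out (adjusted p = 0.0586 to 0.168).

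Runx1 (ENSMUSG00000022952, chr16:92601466-92826149, minus strand), a family member best known for blood cell formation, had 3.24, 3.20 and 3.27 FPKM in overexpression libraries, against 4.55, 4.20 and 3.94 FPKM in control libraries. All overexpression values lay under all control values, as they did for 16.1% of tested genes. The log2 difference was -0.30 (SE 0.07, 95% interval -0.47 to -0.13, limma adjusted p = 0.0305). The call ended without control 1 or 2 or any of the overexpression libraries (adjusted p up to 0.112) and held without control 3 (adjusted p = 0.0473).

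The members of this family thus differed in direction within the same libraries. On the log2 scale of FPKM + 1, the ratio of Runx2 to Runx1 was 1.82, 1.92 and 1.89 in overexpression libraries, against 1.22, 1.26 and 1.49 in control libraries. The groups did not overlap, and their means differed by 0.56. The exact two-sided permutation test gave p = 0.1, the smallest that 20 assignments allow, and 0.15 adjusted over the 6 ratios computed. Runx2 alone and Runx1 alone already separated the groups, in opposite directions. The separation of their ratio and its p-value were therefore fixed in advance and add no support to the 2 calls. With a pseudocount of 5 the difference was 0.36.

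Runx3, the remaining family member and a regulator of T cells and of cartilage maturation, averaged 14.3 ± 1.28 FPKM in overexpression libraries and 12.6 ± 0.793 FPKM in control libraries (SD, n = 3 each) and did not pass the test (limma adjusted p = 0.240). The summed FPKM of Runx1, Runx2 and Runx3 was 30.6, 31.9 and 33.9 in overexpression libraries, against 28.2, 29.1 and 29.4 in control libraries. Runx2 made up 45.8%, 46.8% and 43.8% of that sum in overexpression libraries and 42.2%, 39.6% and 43.6% in control libraries. Cbfb encodes the subunit that RUNX proteins pair with to bind DNA firmly. It had 21.6, 22.7 and 19.9 FPKM in overexpression libraries, against 25.7, 25.1 and 29.4 FPKM in control libraries. Cbfb fell by 0.31 on the log2 scale (SE 0.08, limma adjusted p = 0.0451), and this call ended with any of the 6 libraries left out (adjusted p up to 0.143).

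Genes on the opposite strand overlap both loci, judged by whole gene spans, and whether their exons overlap was not examined. The strand setting of the authors' counting is not given in the sources used here. Where exons overlap, reads of each pair could therefore not be told apart. Runx2os1 and Supt3, which overlap Runx2, averaged 4.08 and 2.61 FPKM in overexpression libraries and 4.62 and 2.85 FPKM in control libraries. Neither passed (log2 differences -0.16 and -0.09, limma adjusted p = 0.650 and 0.588). Gm26626, which overlaps Runx1, averaged 4.52 FPKM in overexpression libraries and 6.03 FPKM in control libraries (log2 difference -0.36, limma adjusted p = 0.0998). As for Runx1, all its overexpression values lay under all control values. Whether reads of the overlapping genes had a part in the values of Runx2 and Runx1 was not tested.

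The upstream sequences of Runx2 and Runx1 at their distal promoters are shown because the genes moved in opposite directions. RefSeq (GRCm38.p6) places their start sites 170 and 75 bases downstream of the gene ends given above, so only bases before both annotated starts are printed, with a stretch of 30 bases around the RUNX core of Runx2. They read 5′ to 3′ on the minus strand, at chr17:44814798-44814877 and chr17:44814689-44814718 for Runx2 and chr16:92826150-92826324 for Runx1. Capitals mark the RUNX core motif TGTGGT and the E-box CANNTG, which bHLH factors such as TWIST1 bind, found on either strand.
Runx2 upstream: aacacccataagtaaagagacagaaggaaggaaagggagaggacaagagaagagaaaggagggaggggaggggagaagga
Runx2 core: tgaggtcacaaACCACATGattctgtctct
Runx1 upstream: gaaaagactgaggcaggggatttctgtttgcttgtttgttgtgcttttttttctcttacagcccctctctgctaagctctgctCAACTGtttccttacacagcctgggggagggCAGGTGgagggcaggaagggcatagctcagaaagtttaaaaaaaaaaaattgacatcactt

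Counted from the RefSeq start sites, Runx2 held 1 RUNX core in the 250 bases before the start. It began at -80 and overlapped 1 E-box that began at -78, so both share the capitals, and both lie within the gene as bounded above. Runx1 held 3 E-boxes, of which 2 are in the stretch printed, and 0 RUNX cores in its 250 bases. In windows extended to 50 bases after the start, Runx2 had further RUNX cores at 24 and 32 bases past the start and an E-box at 36, and Runx1 had RUNX cores at 29 and 37. A RUNX core lay in 16.8% and an E-box in 72.3% of all 32851 windows of 300 bases. The motif AGAACA, bound by the glucocorticoid receptor and held by 19.0% of all windows, was in 0 of the 5 windows of Runx1 (which has 2), Runx2, Msx2 and Twist1. No window was available for Dlx5, Sp7, Sox9 and Irx5, so these were not searched for any motif. The homeodomain motif TAATTA, which 5.3% of all windows held, lay in the Msx2 window with an E-box. The Twist1 window held the SOX core ATTGTT, found in 10.7% of all windows. The GC box GGGCGG, bound by SP-family factors and found in 35.7% of all windows, lay in the Msx2 and Twist1 windows. The homeodomain motif TAATTG, found in 8.0% of all windows, was in 0 of these 5. These letters are a description of the windows and not of binding.

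Dlx5 (ENSMUSG00000029755, chr6:6877805-6882085, minus strand), a homeodomain factor that acts on Runx2 and on bone matrix genes, had 16.2, 15.2 and 16.3 FPKM in overexpression libraries, against 11.5, 12.6 and 13.1 FPKM in control libraries. The groups did not overlap. Dlx5 differed by 0.33 on the log2 scale (SE 0.07, 95% interval 0.17 to 0.50, limma adjusted p = 0.0180), and the call ended without overexpression 1 (adjusted p = 0.0750) or overexpression 3 (adjusted p = 0.0530). The log2 ratio of Dlx5 to Runx2 was 0.19, 0.02 and 0.13 in overexpression libraries, against -0.05, 0.12 and 0.03 in control libraries. These values overlapped (exact two-sided permutation p = 0.4, adjusted over 6 ratios p = 0.4).

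Msx2 (ENSMUSG00000021469, chr13:53466884-53473074, minus strand), a homeodomain factor that binds sites shared with DLX5 and can repress where DLX5 activates, had 1.0, 0.507 and 0.624 FPKM in overexpression libraries, against 0.505, 0.733 and 0.769 FPKM in control libraries. These rested on 60, 31 and 120 reads in overexpression libraries and 33, 84 and 41 reads in control libraries. With no filter on low values, the log2 difference was 0.03 (95% interval -0.23 to 0.29, limma adjusted p = 0.917), an interval that at the control mean takes in FPKM changes between 0.630-fold and 1.55-fold. The log2 ratio of Dlx5 to Msx2 was 3.10, 3.42 and 3.41 in overexpression libraries, against 3.05, 2.97 and 2.997 in control libraries (exact two-sided permutation p = 0.1, adjusted p = 0.15). That separation came with the 1 added to the low Msx2 values, since the plain FPKM ratios overlapped. They were 16.2, 29.9 and 26.1 in overexpression libraries, against 22.7, 17.2 and 17.1 in control libraries.

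Sp7 (ENSMUSG00000060284, chr15:102356606-102367182, minus strand), a zinc finger factor needed for pre-osteoblasts to mature, had 1.96, 1.81 and 1.75 FPKM in overexpression libraries, against 1.76, 1.88 and 1.65 FPKM in control libraries. The groups overlapped. Sp7 differed by 0.04 on the log2 scale (SE 0.08, limma adjusted p = 0.821), and the 95% interval of -0.14 to 0.22 takes in, at the control mean, FPKM changes between 0.854-fold and 1.25-fold. The log2 ratio of Sp7 to Runx2 was -2.34, -2.51 and -2.52 in overexpression libraries, against -2.23, -2.12 and -2.39 in control libraries. That difference of -0.22 did not separate the groups (exact two-sided permutation p = 0.2, adjusted p = 0.24).

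Irx5 (ENSMUSG00000031737, chr8:92357625-92376286, plus strand), an Iroquois homeodomain factor with roles in craniofacial bone, had 12.6, 14.6 and 15.9 FPKM in overexpression libraries, against 10.1, 10.2 and 10.6 FPKM in control libraries. Of the 7 tested factors it differed most, by 0.44 on the log2 scale (SE 0.09, 95% interval 0.24 to 0.64, limma adjusted p = 0.0131). Of the tested genes, 96.4% had a lower value of that difference. The call ended without overexpression 2 (adjusted p = 0.0559). The GC content of Irx5, 65.4%, was the highest of the 8 factors. With the tested genes split by GC content into 3 groups of equal size, the high group exceeded the low group, as log2 deviations from the mean of the libraries' own group, by 0.17 in overexpression 3, where Irx5 was highest. In overexpression 1 and 2 this value was -0.09 and -0.08. It was -0.15, 0.13 and 0.02 in control 1 to 3, where Irx5 was highest in control 3. After each library was corrected for GC content, Irx5 differed by 0.38 (SE 0.07, limma adjusted p = 0.0108). Other Iroquois genes were Irx3, with 7.69 ± 1.15 FPKM in overexpression libraries and 5.83 ± 0.852 FPKM in control libraries (SD, n = 3 each, limma adjusted p = 0.108), and Irx1 and Irx2, which differed by -0.02 each (limma adjusted p = 0.919 and 0.938).

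Sox9 (ENSMUSG00000000567, chr11:112782224-112787760, plus strand), the master factor of cartilage, had 23.4, 24.3 and 25.8 FPKM in overexpression libraries, against 18.6, 18.0 and 19.4 FPKM in control libraries. The groups did not overlap. The log2 difference was 0.37 (SE 0.07, 95% interval 0.22 to 0.52, limma adjusted p = 0.00754). Of the 5 called factors, Sox9 alone passed under all 19 alternative settings (adjusted p at most 0.0454). The log2 ratio of Runx2 to Sox9 was -0.70, -0.67 and -0.76 in overexpression libraries, against -0.60, -0.60 and -0.56 in control libraries. Every overexpression value was lower, by 0.12 on average (exact two-sided permutation p = 0.1, adjusted p = 0.15).

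Twist1 (ENSMUSG00000035799, chr12:33957671-33959829, plus strand), a bHLH factor whose protein binds RUNX2 and blocks it, had 11.96, 12.6 and 13.9 FPKM in overexpression libraries, against 12.8, 13.0 and 12.7 FPKM in control libraries. Overexpression values lay on both sides of the controls. Twist1 differed by 0.00 on the log2 scale (SE 0.07, limma adjusted p = 0.994), and the 95% interval takes in, at the control mean, FPKM changes between 0.886-fold and 1.13-fold. The log2 ratio of Runx2 to Twist1 was 0.21, 0.23 and 0.08 in overexpression libraries, against -0.09, -0.16 and 0.02 in control libraries. Each overexpression value was higher, and the means differed by 0.25 (exact two-sided permutation p = 0.1, adjusted p = 0.15). Since Twist1 itself differed by 0.00, this restates the Runx2 difference of 0.25 and adds no separate support to it.

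**Figure D2:**
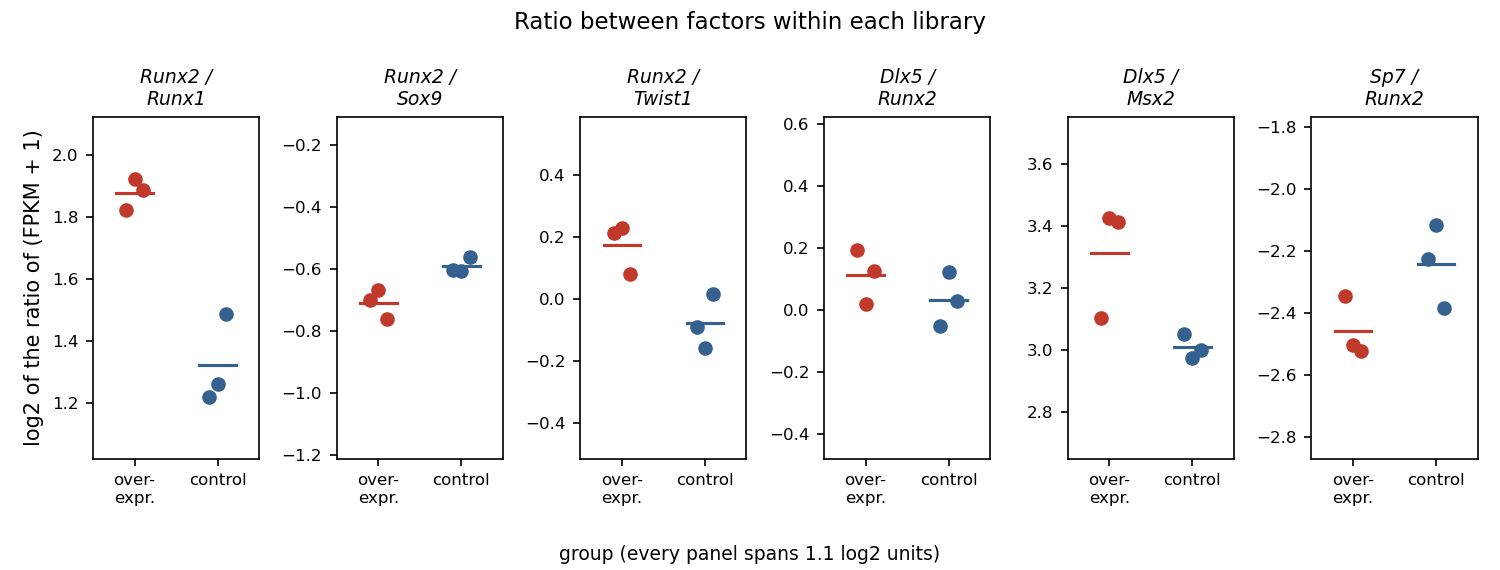
Log2 ratio of (FPKM + 1) between 6 pairs of factors, with 3 overexpression libraries (red, left) and 3 control libraries (blue, right) per panel, bars at the group means, and the same span on every vertical axis. The groups do not overlap for Runx2 over Runx1, Sox9 or Twist1 and for Dlx5 over Msx2 (where plain FPKM ratios overlap). The distance between means is widest for Runx2 over Runx1, at 0.56, where each gene alone already separates the groups. For Runx2 over Twist1 the distance, 0.25, restates that of Runx2 alone.

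The authors' deposited table, made with a test not given in the sources used here, calls the same 5 factors at an adjusted p under 0.05. At that threshold it calls 1065 of the 15796 genes higher and 1005 lower. It rests on the same 6 libraries, so it is no independent support for these calls. It gives log2 fold changes of 0.49 for Irx5, 0.40 for Sox9, 0.36 for Dlx5, 0.27 for Runx2 and -0.39 for Runx1. For Runx1 the authors' deposited table has an adjusted p of 0.000616 and for Runx2 one of 0.00624. For Msx2, Sp7 and Twist1 the authors' deposited table has adjusted p of 0.948, 0.943 and 0.978.

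**Figure D3:**
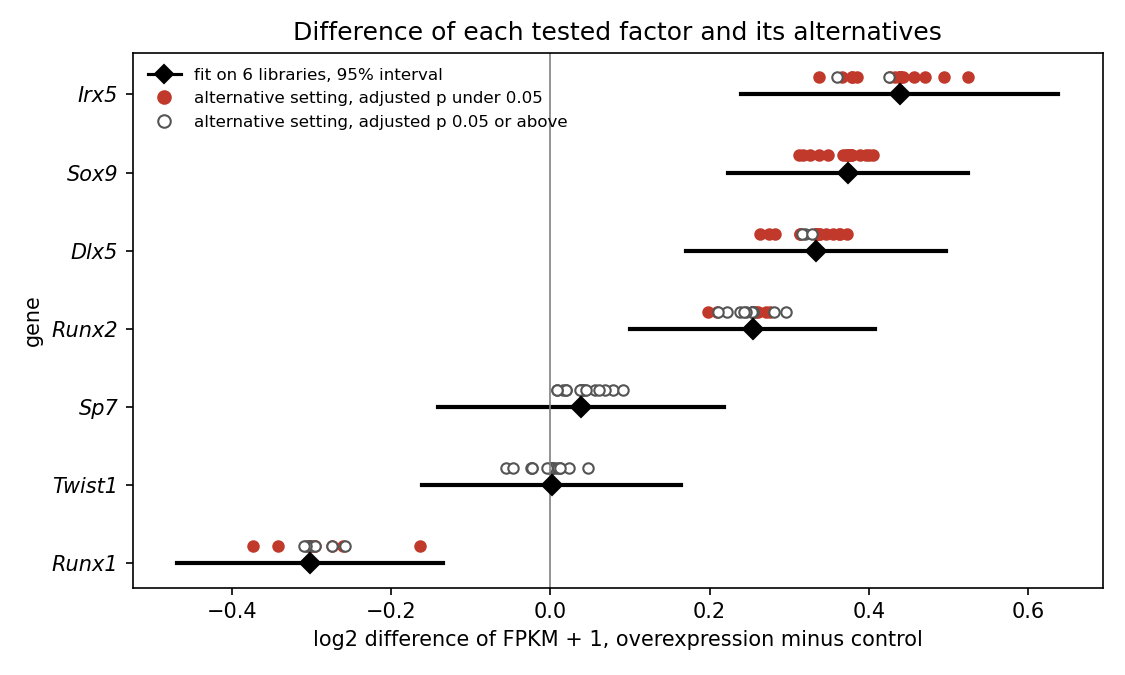
Log2 difference of FPKM + 1, overexpression minus control, for the 7 tested factors (black diamonds, with 95% intervals), and above each the same value under the alternative settings, filled where the adjusted p was under 0.05. Sox9 passed under all 19 alternatives, Irx5 under 17, Dlx5 under 16, Runx2 under 9 and Runx1 under 9 of 17.

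Of 26 listed partners and regulators of RUNX2 and SP7, 24 were tested: 2 rose, 2 fell and 20 did not pass, with a median of 0.01. The shares, 8.33% higher and 8.33% lower, lie near those of all tested genes, 6.22% and 5.84%. Zfp521, a zinc finger protein that binds and represses RUNX2, had 7.06, 7.55 and 7.01 FPKM in overexpression libraries, against 4.59, 4.25 and 4.57 FPKM in control libraries (1.61-fold, limma adjusted p = 0.00108). The groups lay far apart for their spread. Smurf2, a ubiquitin ligase of the SMAD and RUNX pathways, rose to 30.4 ± 1.58 FPKM in overexpression libraries, against 21.7 ± 1.96 FPKM in control libraries (SD, n = 3 each, limma adjusted p = 0.00662). Wwtr1, which encodes TAZ, a co-activator of RUNX2, fell to 27.0, 28.3 and 28.2 FPKM in overexpression libraries, against 40.9, 39.1 and 40.9 FPKM in control libraries (0.691-fold, limma adjusted p = 0.00105). Zfp521, Smurf2 and Wwtr1 kept their calls with each library left out. The most abundant members, Atf4 and Aes, averaged 141 and 76.8 FPKM in overexpression libraries and 151 and 92.5 FPKM in control libraries and did not pass (limma adjusted p = 0.437 and 0.158). Zbtb16 and Mef2c lay under the filter. Zbtb16 averaged 0.282 FPKM in overexpression libraries and 0.0285 FPKM in control libraries. With no filter Zbtb16 differed by 0.32 (limma adjusted p = 0.00693) and Mef2c by -0.16 (limma adjusted p = 0.169).

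Among 35 other factors of the skeletal lineages, 23 were tested, of which 5 rose, 2 fell and 16 did not pass (median 0.04). These shares were 21.7% higher and 8.7% lower, against 6.22% and 5.84% of all tested genes. The gene lists were chosen with earlier results of these data known, so such shares are no test of an excess. Snai1, a zinc finger repressor, rose to 66.3, 59.4 and 72.5 FPKM in overexpression libraries, against 33.5, 44.8 and 42.1 FPKM in control libraries (1.65-fold, limma adjusted p = 0.00546). Its close relative Snai2 fell to 7.08 FPKM in overexpression libraries, against 9.03 FPKM in control libraries. Tbx15 rose 1.39-fold (limma adjusted p = 0.00183), the forkhead gene Foxc1 1.40-fold (limma adjusted p = 0.00913) and Alx4 1.22-fold (limma adjusted p = 0.0283). Prrx1, a homeobox gene of limb and skull mesenchyme, fell to 41.6 ± 2.80 FPKM in overexpression libraries, against 52.3 ± 2.36 FPKM in control libraries (SD, n = 3 each, limma adjusted p = 0.0223). Prrx2, the most abundant of this list, averaged 98.0 FPKM in overexpression libraries and 88.5 FPKM in control libraries (limma adjusted p = 0.445). Foxc1 lost its call without the 2 deepest libraries (limma adjusted p = 0.0614). Prrx1 kept its call only without control 2, Snai2 only without control 2 and Alx4 only without overexpression 1, among the 6 libraries left out in turn. Relatives of the 8 factors that did not pass were Twist2, Msx1, Dlx1, Dlx2, Dlx6 and Sox4 (limma adjusted p = 0.115 to 0.972). Sox5, a cofactor of SOX9, lay under the filter at 0.934 FPKM in overexpression libraries and 0.479 FPKM in control libraries, and with no filter it differed by 0.39 (limma adjusted p = 0.00548).

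ID proteins lack a DNA-binding region and tie up the E proteins that TWIST1 pairs with. All 4 Id genes rose, and the 3 E protein genes Tcf3, Tcf4 and Tcf12 did not pass (limma adjusted p = 0.320 to 0.613). Of these 7 genes 57.1% were thus called higher, against 6.22% of all tested genes. This list too was chosen with earlier results known, so the share is no test of an excess. Id1, which BMP signals induce, averaged 10.6 ± 1.67 FPKM in overexpression libraries and 6.14 ± 1.06 FPKM in control libraries, and Id2 averaged 5.09 ± 0.239 FPKM in overexpression libraries and 3.35 ± 0.874 FPKM in control libraries (SD, n = 3 each). Id3 and Id4 rose 2.22-fold and 1.51-fold (limma adjusted p = 0.00143 and 0.000715). The call of Id2 (limma adjusted p = 0.0487) held only without control 1 among the 6 libraries left out in turn. Id4, at 78.4 FPKM in overexpression libraries and 51.9 FPKM in control libraries, was the most abundant of these genes.

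Osteoblast genes reported as RUNX2 or SP7 targets moved both ways. Of 26 listed, 16 were tested: 4 rose, 5 fell and 7 did not pass, with a median of -0.21. These shares were 25.0% higher and 31.25% lower, against 6.22% and 5.84% of all tested genes. They are no test of an excess either, as the list was chosen with earlier results known. Vdr, the vitamin D receptor gene, rose to 18.1, 16.97 and 18.8 FPKM in overexpression libraries, against 9.30, 9.36 and 9.26 FPKM in control libraries (1.93-fold, limma adjusted p = 0.000107). Mmp13, which encodes a collagenase and is a direct RUNX2 target, rose to 9.55, 7.80 and 8.80 FPKM in overexpression libraries, against 4.79, 4.3997 and 4.67 FPKM in control libraries (1.89-fold, limma adjusted p = 0.000649). Both genes stood clear of the controls in every library. Fgfr2 rose to 12.8 FPKM in overexpression libraries, against 7.51 FPKM in control libraries (limma adjusted p = 0.000470), while its paralog Fgfr1 fell to 40.3 FPKM in overexpression libraries, against 53.2 FPKM in control libraries (limma adjusted p = 0.0137). Sparc (osteonectin) rose 1.25-fold (limma adjusted p = 0.0383), while Cdh11, which encodes an osteoblast cadherin, fell (0.811-fold, limma adjusted p = 0.0208). Dmp1, which encodes a matrix protein of late osteoblasts and osteocytes, fell most. It had 1.76, 1.78 and 1.75 FPKM in overexpression libraries, against 9.93, 9.53 and 10.3 FPKM in control libraries (0.178-fold, limma adjusted p = 1.71e-06). Ank, a pyrophosphate transporter gene, averaged 25.8 FPKM in overexpression libraries and 39.0 FPKM in control libraries (limma adjusted p = 0.000651). Tnfrsf11b, which encodes osteoprotegerin, averaged 15.1 FPKM in overexpression libraries and 23.1 FPKM in control libraries (limma adjusted p = 0.00266). Spp1 and Col1a1 did not pass (limma adjusted p = 0.446 and 0.175). Bglap2 averaged 0.739 FPKM in overexpression libraries and 1.80 FPKM in control libraries and did not pass (log2 difference -0.73, limma adjusted p = 0.113). It rested on 1, 7 and 36 reads in overexpression libraries and 11, 31 and 18 reads in control libraries.

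Within this list, the call of Fgfr1 ended without control 3, overexpression 1 or overexpression 2. The call of Sparc ended without control 1 or 3 or overexpression 1 or 2, and Cdh11 kept its call only without control 2 among the 6 libraries left out in turn. The others held with each library left out. Ibsp, which encodes the bone sialoprotein, lay under the filter. It had 1.06, 1.06 and 0.973 FPKM in overexpression libraries (40, 41 and 118 reads), against 0.0243, 0.0830 and 0.208 FPKM in control libraries (1, 6 and 7 reads). With no filter it differed by 0.88 (limma adjusted p = 0.000250), on a scale where adding 1 to the FPKM shrinks such low values.

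Genes downstream of SOX9 in cartilage showed 0 calls in the main limma fit among 4 tested of 18 listed, with 1 (Col11a1) at an unadjusted p under 0.05. Of the 18, 10 were not found by symbol. Of all tested genes 6.22% were called higher and 5.84% lower, so 0 calls among 4 genes says little. Under alternatives, 1 gene was called higher with voom on recovered reads, at a mean FPKM of at least 5 and with arrayWeights. With the GC correction, alone or with the replicate block, 1 gene was called higher as well. Matn4, a matrilin gene, lay under the filter at 0.416 FPKM in overexpression libraries and 0.709 FPKM in control libraries, and with no filter it differed by -0.27 (limma adjusted p = 0.0450). Col11a1 averaged 16.5 FPKM in overexpression libraries and 13.9 FPKM in control libraries (limma adjusted p = 0.0547), Wwp2 averaged 12.9 and 13.8 FPKM (limma adjusted p = 0.521), and Col2a1, the main cartilage collagen gene, averaged 4.26 and 4.63 FPKM (limma adjusted p = 0.721) in overexpression and control libraries. The fat-lineage factors Cebpd and Cebpb rose 2.502-fold and 2.12-fold (limma adjusted p = 0.000382 and 0.00251), and Zfp423 did not pass. Fabp4, a lipid carrier gene of fat cells, lay under the filter at 1.28 FPKM in overexpression libraries and 0.132 FPKM in control libraries. With no filter Fabp4 differed by 1.01 (limma adjusted p = 6.93e-05). The other 9 of 13 fat-lineage genes, among them Pparg and Adipoq, were not found by symbol. The 2 skeletal muscle genes and 3 endothelial genes found were each under 1 FPKM in both groups. The 4 macrophage genes found summed to 17.4 to 18.3 FPKM in overexpression libraries and 18.2 to 20.1 FPKM in control libraries. They had 0 calls by limma or voom and 0 at an unadjusted limma p under 0.05, and Ptprc and Adgre1 were not found by symbol. As for the cartilage genes, 0 calls among 4 tested says little at the shares of all tested genes. Whether cells of another type had a part in the changes of the 8 factors was not tested.

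**Figure D4:**
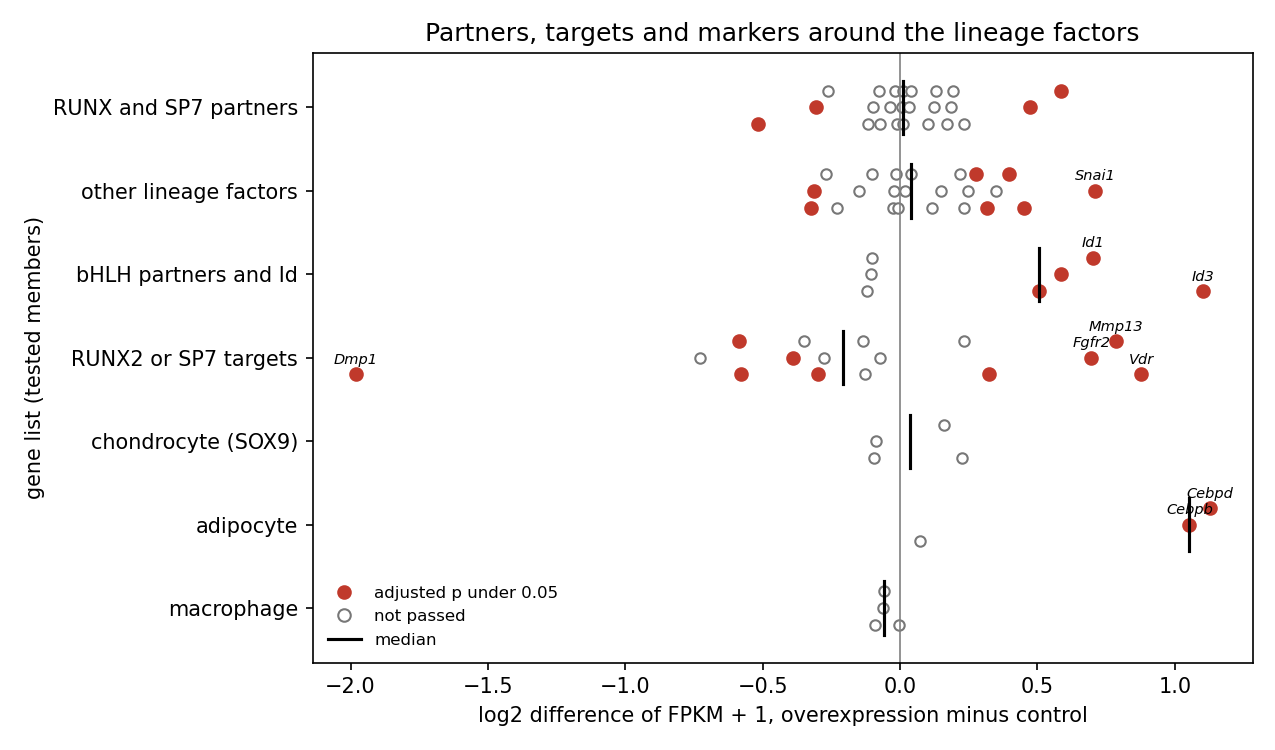
Log2 difference of FPKM + 1, overexpression minus control, of each tested gene in 7 lists, filled red where the adjusted p was under 0.05, with a bar at each list's median. All 4 Id genes lie above 0, the RUNX2 or SP7 targets fall on both sides with Dmp1 lowest, and the partner list has a median of 0.01.

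Genes with the most similar profile over the 6 libraries were found by the root mean square difference of log2(FPKM + 1) after centring each gene on its mean. For Runx2 these were Daam2 (0.022), Fosl2 (0.024) and Zfp784 (0.024), and for Runx1 Cenpt (0.014), Ubash3b (0.020) and Cep128 (0.023). For Dlx5 they were Ndrg1 (0.020), Slc45a4 (0.026) and Sec14l1 (0.028), for Irx5 Col4a1 (0.019), Gm42928 (0.041) and Mras (0.048), and for Sox9 Zmynd8 (0.019), 0610039K10Rik (0.023) and Foxc1 (0.024). Pdcd7, Ist1 and Cnih4 lay nearest to Sp7, and Cyth1, Sufu and Prkcd nearest to Twist1. Among the factors themselves Sox9 was nearest to Runx2, Dlx5 and Irx5, at 0.067, 0.072 and 0.068, and 234, 165 and 16 tested genes were nearer still.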

How the data were processed

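RNA was measured in 3 overexpression and 3 control libraries. Per the submitters' processing notes, cutadapt 2.5, HISAT2 2.1.0, featureCounts 1.6.3 and build mm10 were used, and per the labels' protocols a stranded mRNA kit. Which annotation release served is not given in the sources used here. Values were analysed as FPKM, as the authors deposited them. From the authors' deposited table of their own comparison, the log2 fold changes and adjusted p-values of the 8 factors were quoted.

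Group differences were tested two-sided with limma 3.58.1 under R 4.3.3 (eBayes with a trend, Benjamini-Hochberg adjustment, no covariate) on log2(FPKM + 1). The 13120 genes averaging 1 FPKM or more entered. The scale understates the change of low genes. Since separate cultures are not stated, the p-values reflect only how these libraries vary, which may be technical. Ratios were tested by exact permutation. Reads were recovered from FPKM and exon-union length (GENCODE M21, GRCm38, the same as mm10): 93.7% to 94.9% of values up to 1000 reads were whole within 0.05 reads, and 90.9% of genes were whole in all 6 libraries, Runx1 and Sp7 not among them. Alternatives were another pseudocount, filter, scaling, variance model or weights, a replicate block, a GC correction, voom on recovered reads and libraries left out.

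Members, gene lists and tests were chosen with earlier results of these data known. Named were all 8 factors, up to 4 called genes of each list by smallest p, its 2 most abundant genes and the 3 genes of most similar profile. The other called genes, Bglap2, relatives of the factors, overlapping genes and genes under the filter were chosen after their values were seen. Some list genes counted here are not reported by name.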

Additional observations from a re-analysis of the deposited data

How the results depend on the processing

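Genes called higher and lower, 816 and 766 in all, were 1357 and 1403 with arrayWeights, 1297 and 1162 with the GC correction and 593 and 474 without the 2 deepest libraries. With any single library omitted, 479 to 720 genes were higher and 415 to 613 lower, among them 2 to 3 higher factors and 0 to 1 lower; the higher count moved by over 1.5 times without overexpression 1 or 2, and the lower count without these or control 3. Without the 2 deepest libraries 1 factor was higher (Sox9) and 0 lower, with adjusted p of 0.0843 for Dlx5, 0.0723 for Irx5, 0.154 for Runx2 and 0.110 for Runx1. Runx1 was not tested at a mean FPKM of at least 5 or with voom, so 0 factors were lower there. The replicate numbers are shared between groups, but same-numbered libraries did not deviate together (r = 0.21, -0.29 and -0.03 over genes for numbers 1 to 3). The largest r of any pair across groups, 0.42, was between overexpression 3 and control 2, the 2 deepest libraries. In both, log2 deviations from the group mean were higher for genes of high than of low GC content, by 0.17 and 0.13. With the replicate block 688 and 628 genes were called, and the calls of Runx2 (adjusted p = 0.0928) and Runx1 (adjusted p = 0.0721) ended, leaving 0 lower factors, with or without the GC correction. Cbfb, Prrx1, Snai2, Alx4, Sparc and Cdh11 lost their calls under the block too, and the list of other lineage factors then had 4 higher and 0 lower. Runx2 also lost its call without a trend (adjusted p = 0.0549). Twist1 crossed 0, at -0.0238 with arrayWeights, -0.0234 with the GC correction alone or with the block, -0.0475 without the 2 deepest libraries, and -0.0555 to 0.0476 with 1 library left out. The log2 ratio of Runx2 to Runx1 differed by 0.36 with a pseudocount of 5. The direction of every called factor was the same under the alternatives in which it was tested. With 3 libraries a group, the intervals of Sp7 and Twist1 reach 1.25-fold and 1.13-fold in FPKM, and Msx2 rests on 31 to 120 reads a library.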
